A study of Mus musculus with 18 samples.

Results

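The comparison asked which genes depended differently on SRF-competent MRTFA in E0771 than in AT-3, a pair of mouse mammary carcinoma cell lines. MRTFA was expressed for 48 h under doxycycline at 2 µg/ml from a retroviral pRetroX vector, either as the wild-type protein or as Y238A, a tyrosine-to-alanine mutant that the series describes as deficient in SRF binding. The measure was an interaction on the log2 scale: the wild-type minus Y238A difference in E0771, minus the same difference in AT-3. It used 12 of the 18 libraries of the series, 3 each of E0771 wild type, E0771 Y238A, AT-3 wild type and AT-3 Y238A. The 3 libraries of each line with the empty vector, given doxycycline as well, served as background. The series states 3 separate replicate sets, but the labels name no separate cultures or clones, so p-values measure the spread between these libraries, which may be technical. Line and inserted vector were joined in each group: a difference between the lines cannot be told apart from a difference in how much construct each line made.

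MRTFA is a coactivator held in the cytoplasm by monomeric actin. When actin polymerises, MRTFA is released, enters the nucleus and binds SRF on CArG boxes upstream of genes for actin, actin-binding proteins and contractile proteins. Ternary complex factors use the same face of SRF at immediate early genes, and MRTFA also has SRF-independent roles through its SAP domain. In carcinoma cells this pathway is known for its part in cell shape, contractility and stiffness.

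Values are CPM, counts scaled to a common library size, in each library, or log2 differences ± SE from 3 libraries a group. A gene is called when its Benjamini-Hochberg adjusted p in edgeR's quasi-likelihood F test, over all 17841 genes tested, is under 0.05. A positive interaction means that the wild-type minus Y238A difference was higher in E0771 than in AT-3, and a negative one that it was lower. CPM are not divided by gene length, so levels are compared between groups and not between genes. In bulk RNA, fewer cells that express a gene and less RNA per cell cannot be told apart.

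The upstream sequences of genes from the main groups of results are shown first, as RefSeq gives them on GRCm38.p6, read 5′ to 3′ on the strand of the gene. Capitals mark a CArG box, the element that SRF binds. Srf itself has a pair of them at chr17:46556190-46556249 on the minus strand, and the windows of Fhl2 (chr1:43163962-43164017, minus), Myl9 (chr2:156775278-156775337, plus) and Vcl (chr14:20929148-20929205, plus) belong to genes with a larger difference in AT-3.
Srf: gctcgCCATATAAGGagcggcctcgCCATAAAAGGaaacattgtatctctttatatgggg
Fhl2: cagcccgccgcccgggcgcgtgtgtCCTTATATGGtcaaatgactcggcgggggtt
Myl9: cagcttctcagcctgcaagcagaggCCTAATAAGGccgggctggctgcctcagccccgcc
Vcl: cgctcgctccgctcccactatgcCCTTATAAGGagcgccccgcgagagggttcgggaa

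The next windows belong to a gene with no called interaction, Actg1 (chr11:120348551-120348610, minus), and to a pair with a larger difference in E0771, Filip1l (chr16:57549155-57549214, plus) and Cnn2 (chr10:79988519-79988578, plus). The box of Vcl, Filip1l and Cnn2 has the same letters, while their interactions have different signs.
Actg1: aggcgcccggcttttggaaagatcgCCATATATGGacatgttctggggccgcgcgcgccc
Filip1l: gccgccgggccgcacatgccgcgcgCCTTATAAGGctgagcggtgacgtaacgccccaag
Cnn2: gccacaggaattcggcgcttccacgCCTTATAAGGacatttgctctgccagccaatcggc

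Of the genes tested, 13003 (72.9%) matched a RefSeq window, and the 250 bases before the gene start were searched on both strands. A CArG box stood in 1.47% of all 32851 windows. The other shares count genes with a match in any of their windows, and for the tested genes this was 1.56%. A CArG box stood in 0.969% of genes with a higher called difference in E0771 (31 of 3200) and in 2.43% of those with a lower one (74 of 3048). Among genes called in both lines with the same sign, the share was 3.04% where the difference was larger in AT-3 (47 of 1548) and 6.67% where it was larger in E0771 (7 of 105: Cnn2, Col6a4, Dmd, Filip1l, Lima1, Lmcd1 and Myom1). Where the difference was called in E0771 alone, the share was 0.353% (1 of 283). Where it was called in AT-3 alone, the share was 1.1% (42 of 3820). Of 37 cytoskeletal targets of MRTF and SRF with a window, from the list used below, 7 had a CArG box (18.9%). GGAATG, the core letters of the motif bound by TEAD factors, stood in 12.6% of all windows and in 13.4% of the tested genes. Among genes with the same sign, it stood in 14% of those larger in AT-3 and in 23.8% of those larger in E0771. It stood in 14.8% of genes called in E0771 alone and in 12.1% of those called in AT-3 alone. A match is a description of these letters and not evidence of binding.

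Interferon-stimulated genes are the other group whose sequences are shown. Capitals mark a pair of GAAA half-sites with 2 bases between them, on either strand, the core of the element bound by interferon regulatory factors and ISGF3, where overlapping matches run together. Ifit1 (chr19:34640779-34640838, plus) and Gbp7 (chr3:142530258-142530317, plus) had a large interaction, Oas1a (chr5:120907526-120907564, minus) a large one from few counts, and Isg15 (chr4:156200850-156200909, minus) none that was called.
Ifit1: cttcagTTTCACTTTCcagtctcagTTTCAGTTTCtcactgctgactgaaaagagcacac
Gbp7: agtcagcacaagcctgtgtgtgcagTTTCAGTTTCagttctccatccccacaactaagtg
Oas1a: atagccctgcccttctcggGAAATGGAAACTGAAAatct
Isg15: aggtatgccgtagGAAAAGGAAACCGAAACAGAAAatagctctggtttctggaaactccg

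These letters stood in 18 of the 43 genes of the interferon list with a window (41.9%). They stood in 3.22% of all tested genes with a window, and in 2.98% of all windows.

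Library totals lay between 81265466 and 115260128 counts. Some libraries held low levels of transcripts typical of another group, called foreign transcripts below. The median level of 240 genes typical of AT-3, as a share of their level in AT-3, was 0.508% in E0771 wild type replicate 2, 0.269% in E0771 Y238A replicate 1 and at most 0.0616% in the other 4 construct libraries of E0771. It was highest in E0771 empty vector replicate 2, at 1.35%, and 0 in the other two E0771 empty-vector libraries. For 86 genes typical of E0771, the share of their E0771 level was 0.227% to 0.277% in AT-3 wild type and 0.0495% to 0.0894% in AT-3 Y238A. Another panel held 33 genes that AT-3 expressed with wild type and hardly with empty vector. Its share of the wild-type level was 1.29% in AT-3 Y238A replicate 1, 0.27% in replicate 2 and 0.111% in replicate 3. That share cannot tell transcripts from another library apart from expression under Y238A. An alternative fit left out 4 libraries and kept all AT-3 wild-type libraries. Those left out were E0771 wild type replicate 2, E0771 Y238A replicate 1, AT-3 Y238A replicate 1 and E0771 empty vector replicate 2. A named gene whose call changed without them, or whose called interaction moved by over 1.5 times, is given both ways. Defining epithelial markers were low in both lines: Epcam averaged 2.01 CPM in E0771 and 0.688 CPM in AT-3 over 9 libraries each, and Cdh1 averaged 0.512 CPM in E0771 and 0.751 CPM in AT-3. Krt8, a simple epithelial keratin, averaged 442 CPM in E0771 and 3.4 CPM in AT-3, and Vim, the mesenchymal filament protein, was high in both.

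The construct was far more abundant in AT-3, but wild type exceeded Y238A to a similar degree in both lines. The MRTFA entry had 866, 707 and 709 CPM in E0771 wild type and 354, 325 and 280 CPM in E0771 Y238A, against 7082, 4835 and 4386 CPM in AT-3 wild type and 2326, 2029 and 1958 CPM in AT-3 Y238A. No library of one construct overlapped the other in either line. Wild type was higher than Y238A by 1.25 ± 0.20 in E0771 and by 1.37 ± 0.20 in AT-3, and the interaction of -0.12 ± 0.28 was not called (95% interval -0.73 to 0.50, adjusted p = 0.79). The share of each gene's wild-type minus Y238A difference that goes with this unequal construct level was not tested. Endogenous Mrtfa, whose reads may overlap with those of the construct, averaged 58 CPM in E0771 wild type, 61 CPM in E0771 Y238A, 112 CPM in AT-3 wild type and 171 CPM in AT-3 Y238A, an interaction of 0.54 ± 0.06 (adjusted p = 2.57e-07).

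Across the genome, the difference between the constructs was larger in AT-3. The interaction was called in 8147 genes (45.7% of those tested), 4089 higher (22.9%) and 4058 lower (22.7%) in E0771. Of the called genes, 7308 had the larger absolute difference in AT-3 and 839 in E0771. The wild-type minus Y238A difference was called in 4594 genes in E0771 (25.7%) and in 11805 genes in AT-3 (66.2%). The median absolute log2 difference was 0.231 in E0771 and 0.663 in AT-3. Among 3923 genes called in both lines, 3455 had the same sign, and the slope of the E0771 on the AT-3 difference, drawn through the origin, was 0.575.

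The called genes fell into groups by where the difference was seen. In 5025 it was called in AT-3 and not in E0771, and in 1961 it had the same sign in both lines and was larger in AT-3. In 468 genes (2.62% of those tested) it was called in both lines with opposite signs, and this count was 302 without the 4 libraries left out for foreign transcripts. It was called in E0771 alone in 384 genes, was of the same sign and larger in E0771 in 128, and was called in neither line in 181. Set against empty vector, which both constructs of a line share, the line difference of wild type was larger in absolute size than that of Y238A in 5990 of the 8147 genes (73.5%). Its median absolute size over the called genes was 0.675, against 0.306 for Y238A. The share over all genes tested was not counted, so the 73.5% describes the called genes only.

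The split between higher and lower depends on scaling. The median interaction over all genes was -0.04 with TMM scaling and 0.08 with library totals, a shift of over 0.1, and the called genes were then 5225 higher and 3390 lower (60.7% higher, against 50.2%). In the fit of the 12 construct libraries alone the median was 0.10, with 5163 higher and 3202 lower. A stricter filter on low counts gave 4369 higher and 3288 lower. The counts of small changes below carry that shift.

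**Figure D1:**
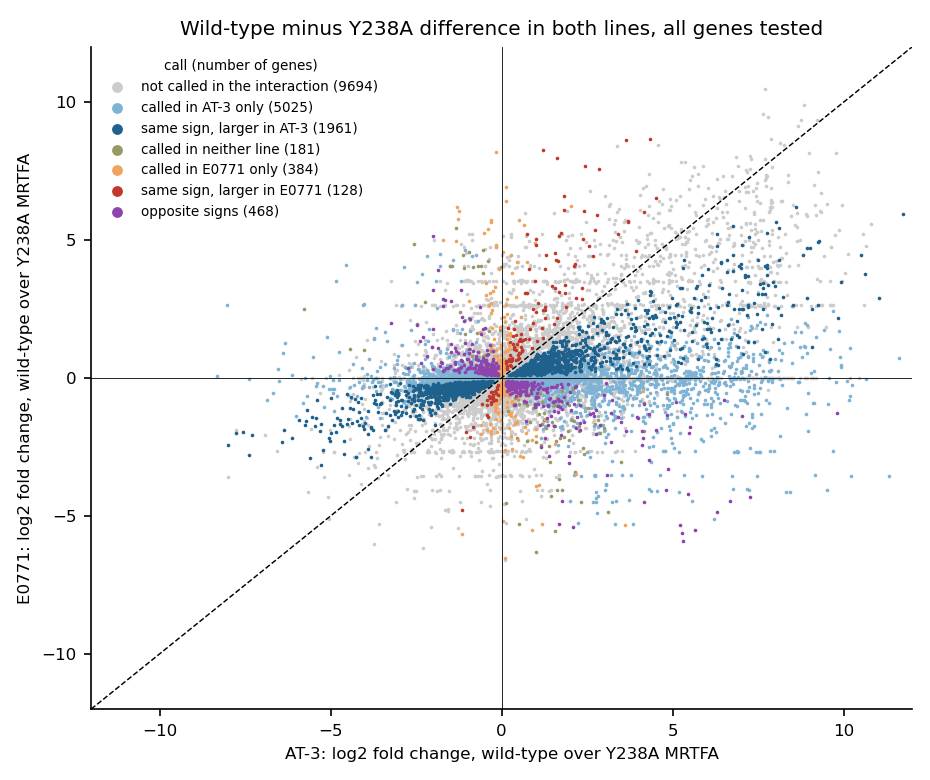
Wild-type minus Y238A log2 difference in E0771 (vertical axis) against AT-3 (horizontal axis) for the 17841 genes tested, each point a gene coloured by its call. The dashed line marks equal differences: most called genes lie between it and the horizontal axis, that is, with a larger difference in AT-3, and rows of points far from 0 are genes with few counts in a group.

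Srf, the partner of MRTFA, showed the interaction itself. It had 402, 373 and 352 CPM in E0771 wild type and 150, 116 and 141 CPM in E0771 Y238A, against 577, 584 and 592 CPM in AT-3 wild type and 97.4, 88.6 and 92.7 CPM in AT-3 Y238A. Wild type lay above Y238A in every library of both lines. The empty-vector libraries had 150 to 169 CPM in E0771 and 180 to 192 CPM in AT-3, so AT-3 Y238A was below its own empty vector and E0771 Y238A was closer to its own. The difference was 1.47 ± 0.07 in E0771 and 2.65 ± 0.07 in AT-3, an interaction of -1.18 ± 0.10 (adjusted p = 1.57e-08). Mrtfb, the paralogue of MRTFA, differed by -0.17 ± 0.05 in E0771 and by -0.73 ± 0.05 in AT-3, an interaction of 0.55 ± 0.08 (adjusted p = 4.49e-06). Of the 12 tested genes for SRF, MRTFs, ternary complex factors and their partners, 5 were called higher and 4 lower (75%, against 45.7% of all genes).

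**Figure D2:**
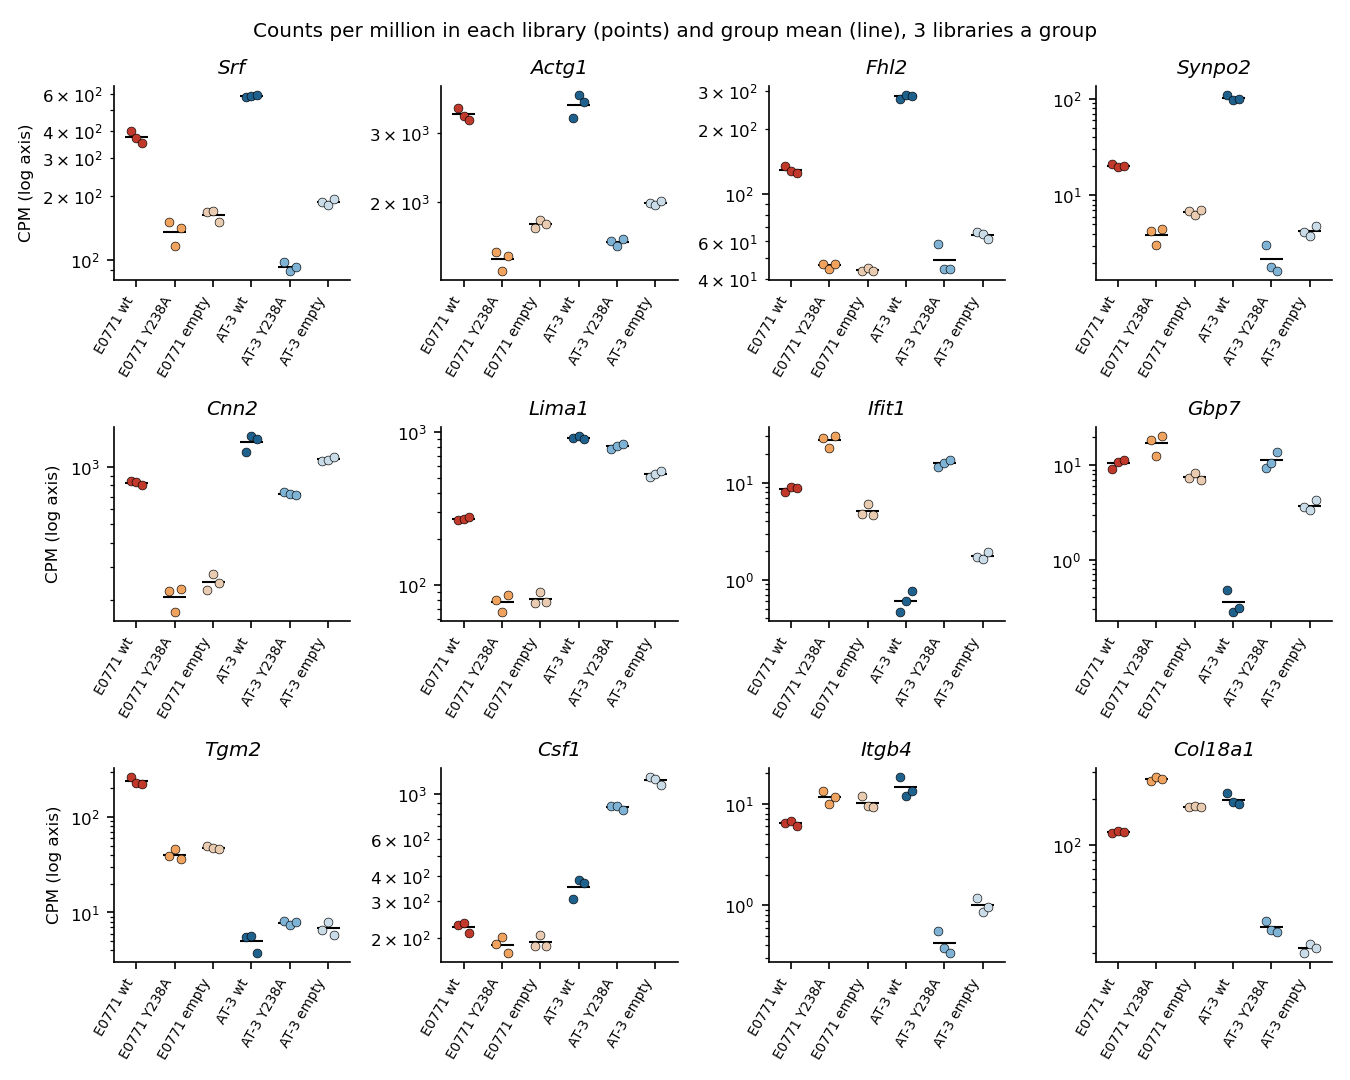
CPM of 12 genes in each library (points) and group means (lines) on log axes, with wild type, Y238A and empty vector of E0771 left of those of AT-3. Srf, Fhl2 and Synpo2 separate the constructs more widely in AT-3, Cnn2 and Lima1 more widely in E0771, Ifit1 and Gbp7 are lowest in AT-3 wild type, and Tgm2, Csf1, Itgb4 and Col18a1 go in opposite directions.

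The cytoskeletal targets of MRTF and SRF were not shifted on balance. Of 42 genes in this list, 16 were called higher and 15 lower in E0771 (73.8% called, against 45.7% of all genes), with a median interaction of 0.00, and this median lay between -0.03 and 0.16 across the settings tried. The list median of wild type over Y238A was 1.03 in E0771 and 0.95 in AT-3. Cytoplasmic actins, the main actins of non-muscle cells, were among the more even members. Actb had 12041, 11696 and 11306 CPM in E0771 wild type and 4896, 4390 and 4852 CPM in E0771 Y238A, against 12750, 14279 and 14028 CPM in AT-3 wild type and 5683, 5440 and 5566 CPM in AT-3 Y238A. Its difference was 1.31 ± 0.05 in E0771 and 1.30 ± 0.05 in AT-3, and the 95% interval of the interaction ran from -0.13 to 0.15 (adjusted p = 0.946).

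Actg1 was close to Actb in this, with 3471, 3313 and 3234 CPM in E0771 wild type and 1493, 1331 and 1452 CPM in E0771 Y238A, against 3260, 3746 and 3590 CPM in AT-3 wild type and 1590, 1539 and 1602 CPM in AT-3 Y238A (interaction 0.07 ± 0.07, 95% interval -0.08 to 0.21). Both were called under another scaling or sample choice: Actb at 0.17 without AT-3 wild type replicate 2, and Actg1 at up to 0.24 with library totals or without AT-3 wild type replicate 2 or 3. Further genes with no called interaction were Csrp1, a LIM protein on actin bundles (2.89 in E0771 and 2.82 in AT-3, 95% interval -0.11 to 0.25), Tpm1, which stabilises actin filaments (1.71 and 1.73, -0.20 to 0.16), Wdr1, a filament disassembly cofactor (1.58 and 1.65, -0.23 to 0.09), and the monomer-binding Pfn1 (0.61 and 0.62, -0.14 to 0.11). Csrp1 was called, at 0.22, without AT-3 wild type replicate 2. In these 6 genes the wild-type libraries did not overlap the Y238A libraries in either line, which held for 36.2% of all genes tested in E0771 and 72.9% in AT-3.

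Other targets had a larger difference in AT-3. Vcl, which links integrin adhesions to actin, had 431, 416 and 410 CPM in E0771 wild type and 127, 116 and 122 CPM in E0771 Y238A, against 1217, 1194 and 1170 CPM in AT-3 wild type and 254, 240 and 247 CPM in AT-3 Y238A. Its interaction was -0.49 ± 0.06 (adjusted p = 1.07e-06). Fhl2, a LIM coactivator and SRF target, had 135, 127 and 125 CPM in E0771 wild type and 47.2, 44.6 and 47.3 CPM in E0771 Y238A, against 276, 289 and 286 CPM in AT-3 wild type and 58.2, 44.7 and 44.8 CPM in AT-3 Y238A (interaction -1.05 ± 0.10, adjusted p = 3.69e-08). The Y238A libraries of the lines lay at nearly the same level for Fhl2, and the wild-type libraries did not.

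Tpm2 (-1.03 ± 0.08), the filament-severing Dstn (-0.90 ± 0.07) and Cfl2 (-1.26 ± 0.10), the crosslinker Flna (-0.70 ± 0.07) and the Z-line protein Pdlim5 (-0.88 ± 0.06) had the same pattern, all with adjusted p from edgeR at or under 4.12e-08. Myl9, the regulatory light chain of non-muscle and smooth muscle myosin, had 553, 530 and 503 CPM in E0771 wild type and 18.8, 9.83 and 14 CPM in E0771 Y238A, against 2249, 2478 and 2391 CPM in AT-3 wild type and 43.9, 25.4 and 20.4 CPM in AT-3 Y238A. Its interaction of -1.09 ± 0.35 (adjusted p = 0.0228) was -1.22 without the 4 libraries left out for foreign transcripts. It was lost, at an adjusted p of up to 0.0889, in the fit of 12 libraries and without E0771 Y238A replicate 1, AT-3 Y238A replicate 2 or AT-3 wild type replicate 2 or 3.

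In another set of targets the difference was larger in E0771. Zyx, a sensor of tension at focal adhesions, had 1072, 968 and 983 CPM in E0771 wild type and 364, 424 and 339 CPM in E0771 Y238A, against 1331, 1496 and 1450 CPM in AT-3 wild type and 984, 1003 and 967 CPM in AT-3 Y238A. Its difference was 1.42 ± 0.06 in E0771 and 0.53 ± 0.06 in AT-3, an interaction of 0.89 ± 0.09 (adjusted p = 6.46e-08). AT-3 empty vector stood at 1438 to 1441 CPM, within the range of AT-3 wild type, while E0771 empty vector stood at 438 to 461 CPM, above E0771 Y238A and far below E0771 wild type.

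Cnn2, a calponin of non-muscle cells, had 842, 835 and 801 CPM in E0771 wild type and 223, 173 and 228 CPM in E0771 Y238A, against 1203, 1458 and 1405 CPM in AT-3 wild type and 742, 718 and 712 CPM in AT-3 Y238A (interaction 1.08 ± 0.13, adjusted p = 1.84e-06). Tpm4 (0.79 ± 0.08) and Filip1l, which interacts with filamin (0.95 ± 0.12), were of this kind as well. Myh9, the heavy chain of non-muscle myosin IIA, was called in E0771 alone: 2720, 2724 and 2682 CPM in E0771 wild type and 1636, 1736 and 1652 CPM in E0771 Y238A, against 4564, 4540 and 4506 CPM in AT-3 wild type and 4120, 4368 and 4562 CPM in AT-3 Y238A. The AT-3 groups overlapped, and the interaction was 0.63 ± 0.06 (adjusted p = 2.89e-08).

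Lima1, also known as EPLIN, which bundles actin filaments, had 267, 270 and 277 CPM in E0771 wild type and 79.6, 66.5 and 85.9 CPM in E0771 Y238A, against 918, 948 and 899 CPM in AT-3 wild type and 777, 810 and 835 CPM in AT-3 Y238A. The difference was 1.81 ± 0.07 in E0771 and 0.19 ± 0.07 in AT-3 (interaction 1.62 ± 0.10, adjusted p = 1.18e-10). Mical2 and Capg had opposite signs in the lines. Mical2, an enzyme that oxidises nuclear actin, differed by 1.19 ± 0.06 in E0771 and -0.34 ± 0.06 in AT-3, and Capg, which caps filament ends, by 0.20 ± 0.04 in E0771 and -1.07 ± 0.04 in AT-3.

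**Figure D3:**
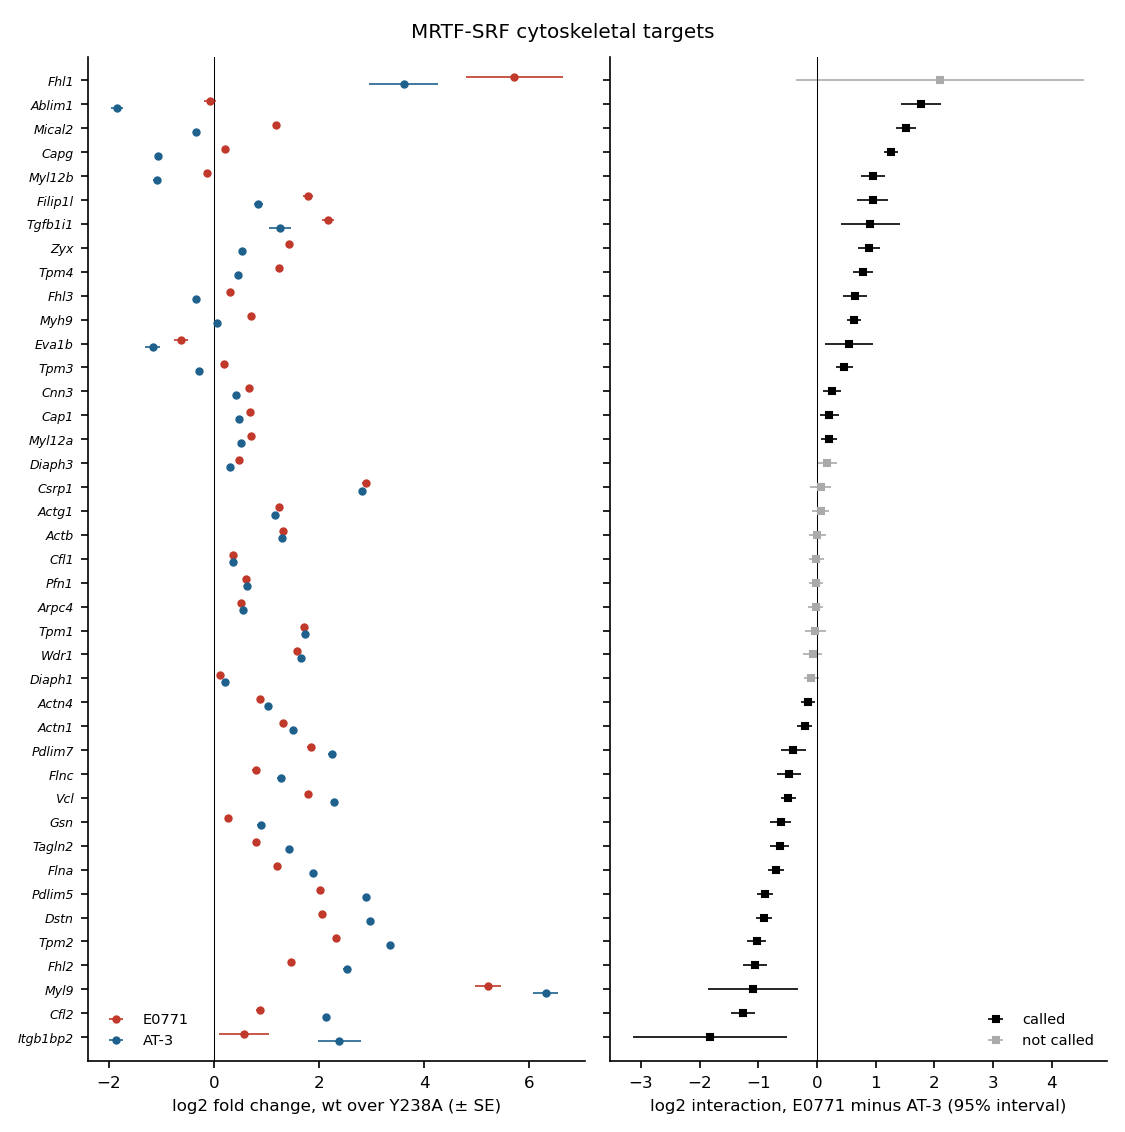
Tested MRTF-SRF cytoskeletal targets, apart from members not reported here: wild-type over Y238A log2 fold change ± SE in each line (left) and the interaction with its 95% interval (right), ordered by the interaction. Called genes lie on both sides of 0, and the cytoplasmic actins Actb and Actg1 lie at 0.07 or less.

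Smooth muscle contractile genes leaned towards AT-3. Of 26, 4 were called higher and 11 lower (57.7%, against 45.7% of all genes), with a median interaction of -0.58, against -0.04 over all genes. The list median of wild type over Y238A was 1.77 in E0771 and 4.43 in AT-3. Acta2, smooth muscle actin, was at an even difference in both lines: 11009, 10140 and 9896 CPM in E0771 wild type and 410, 339 and 320 CPM in E0771 Y238A, against 41912, 42877 and 41184 CPM in AT-3 wild type and 2017, 1523 and 1364 CPM in AT-3 Y238A (interaction 0.18 ± 0.17, 95% interval -0.19 to 0.54). Synpo2, which binds actin and filamin, had 21.3, 19.7 and 19.9 CPM in E0771 wild type and 4.21, 3.02 and 4.44 CPM in E0771 Y238A, against 110, 97.8 and 99.1 CPM in AT-3 wild type and 3.08, 1.82 and 1.64 CPM in AT-3 Y238A (interaction -3.17 ± 0.24, adjusted p = 1.41e-08).

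Nexn, an actin-binding protein of adhesions and Z-lines, had 196, 211 and 192 CPM in E0771 wild type and 71.5, 59.5 and 72.6 CPM in E0771 Y238A, against 205, 226 and 214 CPM in AT-3 wild type and 12.2, 10.4 and 9.27 CPM in AT-3 Y238A. Wild-type levels were alike in the lines, AT-3 Y238A was lower than E0771 Y238A, and the interaction was -2.78 ± 0.11 (adjusted p = 5.47e-13). Mylk, the kinase that phosphorylates myosin light chains (-3.01 ± 0.50), was called lower too. So were the intermediate filament genes Des (-4.42 ± 0.46) and Synm (-4.57 ± 0.37). Cnn1 at -1.05 ± 0.80 and Tagln at -0.27 ± 0.77 were not called, and their E0771 Y238A libraries held at most 4.27 CPM and 0.16 CPM, within reach of transcripts from AT-3. Without the 4 libraries left out for foreign transcripts their interactions were 0.09 and -0.38, also not called.

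Sarcomere genes, which are normally restricted to striated muscle, were measured at low levels. Of 40 tested, 6 were called higher and 14 lower (50%, near the 45.7% of all genes), with a median interaction of -1.11 and list medians of 1.12 in E0771 and 2.63 in AT-3. Actn2, the crosslinker of the Z-disc, had 7.43, 6.58 and 6.4 CPM in E0771 wild type and 0.209, 0.326 and 0.527 CPM in E0771 Y238A, against 19, 21.7 and 21.8 CPM in AT-3 wild type and 0.199, 0.06 and 0.0839 CPM in AT-3 Y238A (interaction -3.20 ± 0.47, adjusted p = 6.23e-06). Ldb3, its partner at the Z-disc, had an interaction of -2.09 ± 0.25, and Neb, the ruler protein of thin filaments, of -6.43 ± 0.80, with 111, 77 and 68.6 CPM in AT-3 wild type and at most 1.15 CPM in AT-3 Y238A, while no E0771 library with either construct passed 1.07 CPM. Tnnt2, cardiac troponin T, ran the other way, with 6.45, 7.97 and 7.11 CPM in AT-3 wild type and 34.4, 31.5 and 28.1 CPM in AT-3 Y238A (interaction 1.95 ± 0.21, adjusted p = 2.2e-07).

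Actc1, cardiac actin, was induced strongly in both lines: 832, 671 and 647 CPM in E0771 wild type and 2.09, 0.369 and 0.252 CPM in E0771 Y238A, against 1056, 1016 and 1080 CPM in AT-3 wild type and 11.7, 3.18 and 0.839 CPM in AT-3 Y238A. The Y238A replicates left out for foreign transcripts held the highest values in each line. Its interaction of 1.92 ± 1.01 was not called with all libraries, was 2.19 without the 4 (adjusted p = 0.0357), and was also called without E0771 Y238A replicate 1 alone (3.53) or AT-3 Y238A replicate 3 alone (2.42). Fhl1 at 2.10 ± 1.13 went to 3.29 in the same way (adjusted p = 0.000171), while Acta1, skeletal actin, was not called with them (-0.36 ± 1.05) or without them (-0.92).

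Immediate early genes, targets of SRF and ternary complex factors, also leaned towards AT-3. Of 32, 6 were called higher and 18 lower (75%, against 45.7% of all genes), with a median of -0.42. Arc, a gene of synaptic activity, had 36.4, 34 and 35.3 CPM in E0771 wild type and 16.1, 12.6 and 15.9 CPM in E0771 Y238A, against 343, 298 and 321 CPM in AT-3 wild type and 6.75, 4.62 and 3.73 CPM in AT-3 Y238A. The difference was 1.25 ± 0.14 in E0771 and 5.99 ± 0.15 in AT-3 (interaction -4.74 ± 0.21, adjusted p = 1.16e-10). Dusp2, a nuclear phosphatase of MAP kinases, differed in AT-3 alone (5.39 ± 0.25, against -0.21 ± 0.17 in E0771). Ier2 (-1.49 ± 0.07) and the nuclear receptor Nr4a1 (-2.07 ± 0.18) were called lower as well. Fos (0.28 ± 0.30, 95% interval -0.33 to 0.90) was not called. Klf10, a TGF-beta inducible repressor, was lower in wild type in both lines, by -0.37 ± 0.07 in E0771 and -2.44 ± 0.07 in AT-3, so its interaction was positive at 2.07 ± 0.10.

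In all, 512 genes (2.87% of those tested), members of these lists included, were called with a larger difference in E0771, either in E0771 alone or with the same sign in both lines. Pkp2, a desmosomal plakophilin, had 253, 242 and 228 CPM in E0771 wild type and 46.2, 38.6 and 47.2 CPM in E0771 Y238A, against 128, 150 and 143 CPM in AT-3 wild type and 59.8, 57.1 and 59.1 CPM in AT-3 Y238A (interaction 1.19 ± 0.09, adjusted p = 1.98e-09). Tgfb2, a TGF-beta ligand, had 21.2, 21 and 21.8 CPM in E0771 wild type and 7.21, 7.2 and 7.24 CPM in E0771 Y238A, against 26.5, 24.2 and 23.6 CPM in AT-3 wild type and 18.9, 18.5 and 18.4 CPM in AT-3 Y238A (interaction 1.15 ± 0.09, adjusted p = 2.17e-09). The metalloprotease Adamts7 (1.32 ± 0.12) and the phospholipase Plcb4 (1.96 ± 0.36) were larger in E0771 too.

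Dmd, which encodes dystrophin, the link between actin and the membrane, had 3.84, 4.19 and 3.5 CPM in E0771 wild type, against 1 E0771 Y238A library at 0.0379 CPM and the other two at 0. In AT-3 it had 14.8, 15 and 13.1 CPM with wild type and 4.97, 4.36 and 4.51 CPM with Y238A. Its interaction was 6.34 ± 1.09 (adjusted p = 5.66e-08), and its size rests on the 4 counts of that library, E0771 Y238A replicate 1. It was 9.88 without that library and 9.75 without the 4 (adjusted p = 6.71e-07), where the E0771 Y238A group is at 0 and the fitted size is not fixed by the data. Several genes of this kind stood far higher in AT-3 and at a low level in E0771. Mcam, an adhesion molecule, had 72.6, 70.8 and 60.7 CPM in E0771 wild type and 10, 5.08 and 6.23 CPM in E0771 Y238A, against 1515 to 1665 CPM in AT-3 wild type and 528 to 546 CPM in AT-3 Y238A (interaction 1.69 ± 0.31, and 1.99 without the 4 libraries). Tnc, the matrix protein tenascin C, had an interaction of 1.65 ± 0.44 with them and 1.73 without them.

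YAP and TEAD share many target genes with MRTF and SRF. Of 24 targets, 10 were called higher and 5 lower (62.5%, against 45.7% of all genes), with a median of 0.28. Ankrd1, a classic YAP target, had 23.8, 24.1 and 18.4 CPM in E0771 wild type and 4.63, 4.17 and 1.83 CPM in E0771 Y238A, against 484, 596 and 554 CPM in AT-3 wild type and 549, 499 and 445 CPM in AT-3 Y238A. The constructs overlapped in AT-3, and the interaction was 2.50 ± 0.53 (adjusted p = 0.00166). Crim1 (0.79 ± 0.08) and the receptor tyrosine kinase Axl (0.98 ± 0.08) were called higher, and the angiomotin Amotl1 lower (-2.06 ± 0.07). Ccn1 was not called (0.14 ± 0.28, 95% interval -0.46 to 0.75). Ccn2, at -0.84 ± 0.42, was not called but was at -1.22 without AT-3 Y238A replicate 1 (lowest adjusted p among its alternatives 0.0174, highest 0.357).

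Interferon-stimulated genes were the list with the highest median. Of 54, 41 were called higher and 1 lower (77.8%, against 45.7% of all genes). The median interaction was 1.37, and lay between 1.31 and 1.54 across settings. Their expression was lower with wild type than with Y238A in both lines, and more so in AT-3: 51 fell and 1 rose in E0771 and 51 fell in AT-3, with list medians of -1.48 in E0771 and -2.68 in AT-3. Of all genes tested, 13% were called lower with wild type in E0771 and 31.4% in AT-3. Against empty vector, 51 of 54 were higher with Y238A in E0771 and 48 in AT-3 (list medians 1.51 and 1.90). Wild type had 15 higher and 1 lower in E0771, against 4 higher and 42 lower in AT-3 (list medians 0.14 and -1.32). The empty-vector libraries of a line are shared by its constructs. The shares of all genes called against empty vector are not given here, so these counts are not set against them.

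Ifit1, which binds viral RNA, had 8.02, 9.09 and 8.83 CPM in E0771 wild type and 28.8, 22.9 and 30.5 CPM in E0771 Y238A, against 0.465, 0.6 and 0.766 CPM in AT-3 wild type and 14.7, 16.1 and 17 CPM in AT-3 Y238A. E0771 empty vector had 4.64 to 6.06 CPM and AT-3 empty vector 1.64 to 1.93 CPM, so wild type was above empty vector in E0771 and below it in AT-3. The difference was -1.66 ± 0.13 in E0771 and -4.71 ± 0.17 in AT-3 (interaction 3.05 ± 0.22, adjusted p = 3.28e-10). Gbp7, an interferon-inducible GTPase, had 9.1, 10.9 and 11.5 CPM in E0771 wild type and 18.8, 12.5 and 20.6 CPM in E0771 Y238A, against 0.475, 0.277 and 0.304 CPM in AT-3 wild type and 9.43, 10.6 and 13.7 CPM in AT-3 Y238A (interaction 4.25 ± 0.31, adjusted p = 4.57e-10).

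Rsad2, the antiviral enzyme viperin (4.09 ± 0.57), the receptor chaperone Rtp4 (3.95 ± 0.34) and Uba7, the E1 enzyme for ISG15 (4.58 ± 0.65), had interactions of like size, with at most 0.262 CPM in any AT-3 wild-type library. Irf1, a transcription factor of the pathway, had 40.2, 45.1 and 42.9 CPM in E0771 wild type and 55.6, 43.5 and 52.1 CPM in E0771 Y238A, against 32.7, 31.5 and 32.4 CPM in AT-3 wild type and 139, 162 and 150 CPM in AT-3 Y238A. The E0771 constructs overlapped, through Y238A replicate 2 alone, and the AT-3 constructs did not (interaction 1.99 ± 0.11, adjusted p = 6.57e-12). Bst2, the virion tether tetherin (1.93 ± 0.15), Ifitm2, an entry inhibitor (1.69 ± 0.08), and the ubiquitin ligase Trim25 (1.22 ± 0.09) were called higher too.

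Some members differed from this pattern. The ubiquitin-like Isg15 had 7.39, 7.48 and 8.4 CPM in E0771 wild type and 36.8, 26.2 and 45.8 CPM in E0771 Y238A, against 8.06, 6.31 and 6.71 CPM in AT-3 wild type and 25.8, 28.2 and 27 CPM in AT-3 Y238A. Its interaction of -0.29 ± 0.22 was not called (95% interval -0.75 to 0.17), but was -0.47 and called without E0771 Y238A replicate 2 (adjusted p = 0.0229). The transcription factor Irf7 (0.24 ± 0.21, -0.20 to 0.68) was not called. Ifit2 was the member called lower (-0.37 ± 0.14, adjusted p = 0.0333), and this call was lost in 12 of 20 alternatives (adjusted p up to 0.199): with library totals, in the fit of 12 libraries, without the 4 libraries, and without any single construct library other than E0771 wild type replicate 2, E0771 Y238A replicate 2 or AT-3 Y238A replicate 3. Oas1a (3.97 ± 1.03) rests on AT-3 wild-type libraries at 0, 0 and 0.045 CPM, and was 7.59 without replicate 3, the one above 0. Reads of close copies, such as Oas1a and Oas1g or Ifit3 and Ifit3b, may have been split between them.

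**Figure D4:**
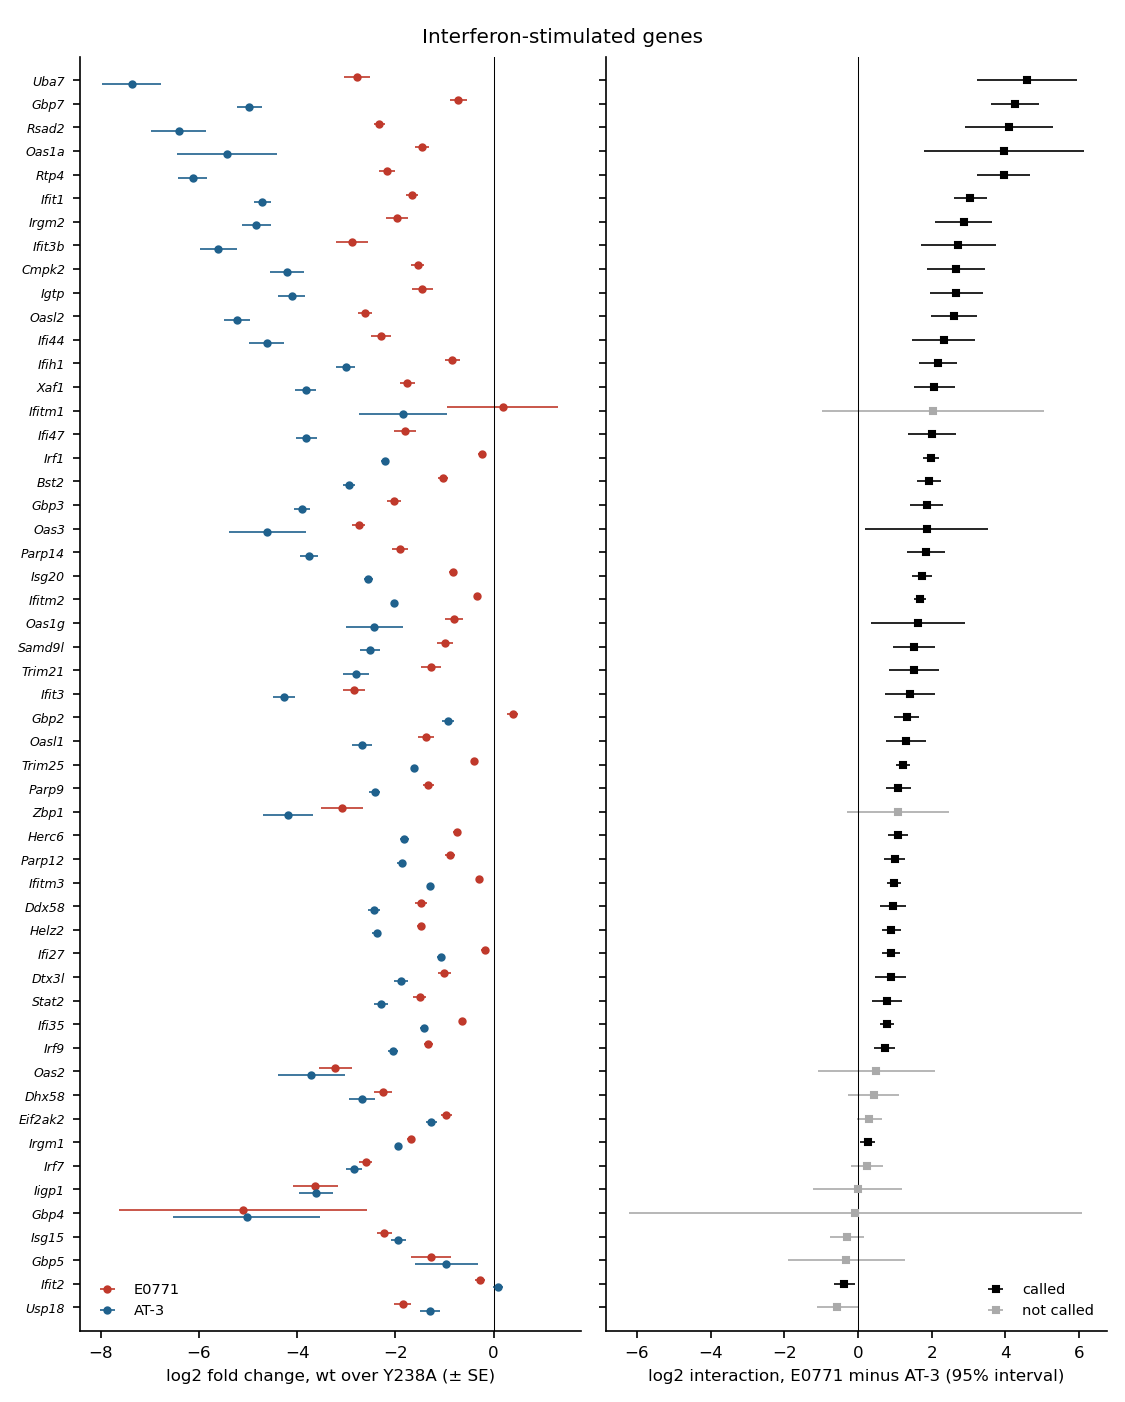
Tested interferon-stimulated genes, apart from members not reported here: wild-type over Y238A log2 fold change ± SE in each line (left) and the interaction with its 95% interval (right). In 41 genes the interaction was called above 0, with the AT-3 value further below 0 than the E0771 value in most.

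Ly6a and Ly6c1, surface proteins that interferon also induces, were likewise lower with wild type than with Y238A in both lines, and more so in AT-3, and Ly6a had the smallest p of the genes tested. Ly6a had 12.9, 13 and 12.8 CPM in E0771 wild type and 50.7, 49.4 and 49 CPM in E0771 Y238A, against 1.16, 1.38 and 1.46 CPM in AT-3 wild type and 236, 253 and 263 CPM in AT-3 Y238A. Empty-vector libraries stood alike in both lines, at 12.6 to 15.6 CPM in E0771 and 15.7 to 16.2 CPM in AT-3. The interaction was 5.61 ± 0.11 (adjusted p = 4.79e-18) for Ly6a and 5.80 ± 0.17 for Ly6c1.

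Antigen presentation by MHC class I followed in part: 17 of 28 genes were called higher and 6 lower (82.1%, against 45.7% of all genes), with a median of 0.72. For wild type over Y238A, 9 were called higher and 10 lower in E0771, against 6 higher and 19 lower in AT-3. Tapbpl, a peptide editor, had 14.9, 13.1 and 14.1 CPM in E0771 wild type and 24.2, 24.1 and 24.6 CPM in E0771 Y238A, against 1.58, 1.52 and 0.878 CPM in AT-3 wild type and 16.7, 17.3 and 18.2 CPM in AT-3 Y238A (interaction 2.92 ± 0.17, adjusted p = 3.41e-11). The immunoproteasome subunit Psmb10 (1.66 ± 0.12) and the proteasome activator Psme2 (1.67 ± 0.10) were called higher. H2-K1, a class I heavy chain, had opposite signs: 93.7, 86.9 and 88.1 CPM in E0771 wild type and 68.7, 66.2 and 67.2 CPM in E0771 Y238A, against 65, 64 and 66.2 CPM in AT-3 wild type and 145, 151 and 145 CPM in AT-3 Y238A (interaction 1.59 ± 0.06, adjusted p = 3.71e-14). Of 38 NF-kB and inflammatory cytokine genes, 15 were called higher and 5 lower (52.6%, near the 45.7% of all genes, median 0.48). The chemokine Ccl2 was at 2.64 ± 0.22, and the adaptor Traf1 was at -4.56 ± 0.42.

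Mesenchymal genes were called higher more often than lower. Of 31, 18 were called higher and 5 lower (74.2%, against 45.7% of all genes). The median was 0.98, with list medians of 0.15 in E0771 and -0.72 in AT-3. Vim had 3410, 3617 and 3538 CPM in E0771 wild type and 4303, 4268 and 4289 CPM in E0771 Y238A, against 638, 835 and 831 CPM in AT-3 wild type and 2935, 2872 and 2908 CPM in AT-3 Y238A. AT-3 empty vector stood at 2616 to 2671 CPM, and the interaction was 1.64 ± 0.09 (adjusted p = 2.07e-11). S100a4, a calcium-binding protein of motile cells (2.35 ± 0.10), Myof, a membrane repair ferlin (1.71 ± 0.07), and the receptor Pdgfrb (1.77 ± 0.14) were alike in sign. The repressors Zeb1 (-0.81 ± 0.09), Zeb2 (-0.48 ± 0.06) and Twist1 (-0.60 ± 0.11), which drive the mesenchymal state in many carcinomas, were called lower, and Snai1 higher (1.87 ± 0.22). Twist1 was at -0.40 without AT-3 wild type replicate 3 (highest adjusted p among its alternatives 0.0078).

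Epithelial genes leaned the other way, with 6 of 36 called higher, 13 lower (52.8%, against 45.7% of all genes) and a median of -0.99, mostly at low levels. Members called higher included Pkp2, at 1.19, and the keratin Krt14, at 2.22. Krt8 had 678, 621 and 567 CPM in E0771 wild type and 396, 391 and 373 CPM in E0771 Y238A, against 11.1, 9.17 and 9.72 CPM in AT-3 wild type and 0.238, 0.04 and 0.105 CPM in AT-3 Y238A. The interaction was -5.59 ± 0.36 (adjusted p = 4.69e-11), and AT-3 wild type was still far below every E0771 library. Jup, the junction protein plakoglobin, had 173, 152 and 144 CPM in E0771 wild type and 137, 98.7 and 127 CPM in E0771 Y238A, against 369, 348 and 350 CPM in AT-3 wild type and 36.6, 32.5 and 32.4 CPM in AT-3 Y238A (interaction -3.02 ± 0.13, adjusted p = 5.13e-12).

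Matrix genes were split: 13 of 54 were called higher and 18 lower (57.4%, against 45.7% of all genes). The median of 0.00 changed sign between settings. The fibrillar collagen Col5a3 had 146, 139 and 131 CPM in E0771 wild type and 304, 303 and 287 CPM in E0771 Y238A, against 19.5, 20.2 and 19.5 CPM in AT-3 wild type and 451, 443 and 386 CPM in AT-3 Y238A (interaction 3.33 ± 0.08, adjusted p = 2.91e-17). Col16a1, at 2.74 ± 0.07, and the fibulin Fbln2, at 1.81 ± 0.09, had the same pattern, as had Pcolce, an enhancer of procollagen processing outside the list (3.40 ± 0.10). Col3a1 (-2.01 ± 0.19) and Loxl2, a collagen crosslinking enzyme (-1.80 ± 0.16), were called lower.

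Col18a1, the source of endostatin, had opposite signs, with 119, 124 and 122 CPM in E0771 wild type and 261, 278 and 270 CPM in E0771 Y238A, against 216, 190 and 186 CPM in AT-3 wild type and 32.4, 28.3 and 27.5 CPM in AT-3 Y238A. The difference was -1.15 ± 0.06 in E0771 and 2.75 ± 0.06 in AT-3, and the interaction of -3.89 ± 0.09 was among the strongest by its p (adjusted p = 2.91e-17).

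Among integrin and focal adhesion genes, 12 of 45 were called higher and 16 lower (62.2%, against 45.7% of all genes). The median was -0.12, and 0.02 at its highest across settings. Tln2, a talin that links integrins to actin, was even between the constructs in E0771 and not in AT-3: 160, 162 and 155 CPM in E0771 wild type and 158, 142 and 157 CPM in E0771 Y238A, against 468, 458 and 445 CPM in AT-3 wild type and 64, 61.4 and 59.5 CPM in AT-3 Y238A (interaction -2.83 ± 0.06, adjusted p = 2.56e-17). Tns1, a tensin, was alike (-2.50 ± 0.10). Itgb5, a beta chain of vitronectin receptors, was higher at 2.36 ± 0.08, and Itga5, a chain of the fibronectin receptor, lower at -0.89 ± 0.06. Itgb4, the hemidesmosome integrin, had 6.4, 6.73 and 6.03 CPM in E0771 wild type and 13.4, 9.99 and 11.8 CPM in E0771 Y238A, against 18.4, 11.9 and 13.3 CPM in AT-3 wild type and 0.556, 0.38 and 0.336 CPM in AT-3 Y238A (interaction -5.97 ± 0.28, adjusted p = 6.57e-13).

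**Figure D5:**
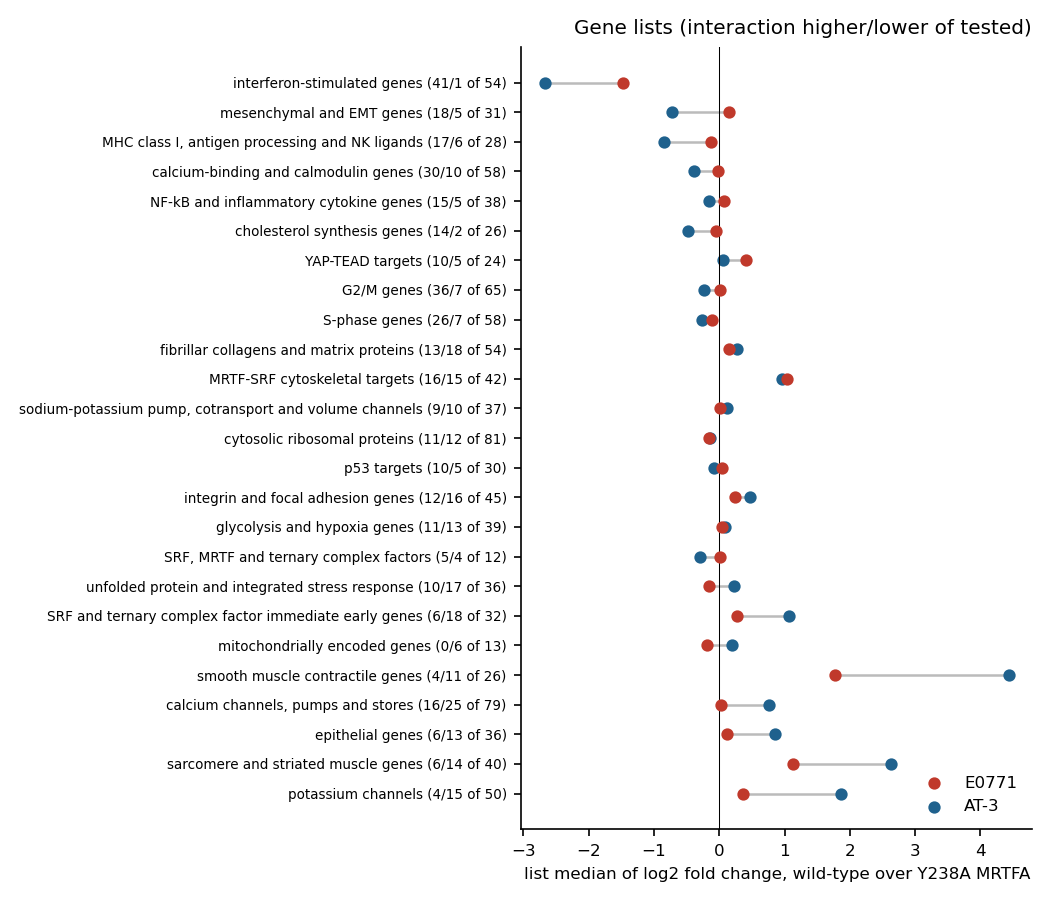
Median wild-type over Y238A log2 fold change of each gene list with at least 10 genes tested, in E0771 and in AT-3, ordered by the median interaction, with the numbers called higher and lower beside the name. The AT-3 median lies further from 0 in most lists, and the MRTF-SRF cytoskeletal list has nearly the same median in both lines (1.03 in E0771 and 0.95 in AT-3).

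Calcium and potassium are named in the title of the series. Of 79 genes for calcium channels, pumps and stores, 16 were called higher and 25 lower (51.9%, against 45.7% of all genes), with a median interaction of -0.59 and list medians of 0.03 in E0771 and 0.77 in AT-3. Trpv2, a cation channel of the plasma membrane, had 140, 129 and 125 CPM in E0771 wild type and 17.4, 11.9 and 18.1 CPM in E0771 Y238A, against 81.1, 90.6 and 91 CPM in AT-3 wild type and 0.794, 0.28 and 0.168 CPM in AT-3 Y238A. The difference was 3.05 ± 0.20 in E0771 and 7.71 ± 0.37 in AT-3, and the interaction was -4.65 ± 0.42 with all libraries and -5.45 without the 4. Orai1, the pore of store-operated calcium entry, differed in AT-3 alone, with 72.2, 67.1 and 65.5 CPM in AT-3 wild type and 29.3, 28.8 and 30.6 CPM in AT-3 Y238A (interaction -1.27 ± 0.10, adjusted p = 2.48e-09). E0771 had 12.6 to 14.4 CPM of Orai1 with wild type and 13.2 to 14.7 CPM with Y238A.

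The store release channels went different ways: Itpr3 at 0.94 ± 0.07, with lower levels in wild type in both lines, while Itpr1 was higher in wild type in both, by 0.28 ± 0.06 in E0771 and 1.28 ± 0.06 in AT-3 (adjusted p of the interaction 3.9e-09). The channels Pkd2 (1.10 ± 0.07) and Orai3 (0.96 ± 0.12) were called higher, and the voltage-gated subunits Cacna1c (-1.62 ± 0.15) and Cacnb1 (-2.08 ± 0.25) lower. The sensor Stim1 (-0.30 ± 0.15) and Piezo1 (0.23 ± 0.10), a channel opened by membrane tension, were not called. Stim1 was called by DESeq2 and without E0771 Y238A replicate 2 (-0.46), and Piezo1 in 7 of 20 alternatives, at up to 0.37 in the fit of 12 libraries. Of 58 calcium-binding and calmodulin genes, 30 were called higher and 10 lower (69%, against 45.7% of all genes, median 0.54). Called higher were S100a10 (1.38 ± 0.07), Camk1 (1.30 ± 0.06), Anxa4 (1.52 ± 0.08) and the phosphatase target Nfatc2 (3.07 ± 0.20), among others.

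Of 50 potassium channel genes, 4 were called higher and 15 lower, a share of 38% that is below the 45.7% of all genes, with a median of -1.15 and list medians of 0.36 in E0771 and 1.87 in AT-3. Their summed level was 384 to 386 CPM in E0771 wild type and 358 to 385 CPM in E0771 Y238A, against 107 to 112 CPM in AT-3 wild type and 32.5 to 36.2 CPM in AT-3 Y238A. Kcnh2, the voltage-gated channel also called hERG, had 53.2, 48.9 and 50 CPM in E0771 wild type and 35, 31.6 and 34.8 CPM in E0771 Y238A, against 5.2, 4.38 and 4.39 CPM in AT-3 wild type and 0.794, 0.56 and 0.734 CPM in AT-3 Y238A (interaction -2.16 ± 0.17, adjusted p = 1.17e-09). Kcnn4, the calcium-activated channel of intermediate conductance, was lower in wild type by -0.32 ± 0.06 in E0771 and -1.32 ± 0.07 in AT-3 (interaction 0.99 ± 0.09, adjusted p = 1.06e-08).

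The sodium-potassium pump and volume regulation genes had 9 of 37 called higher and 10 lower (51.4%, near the 45.7% of all genes), with a median of 0.00. Atp1b3, a beta subunit of the pump, differed in AT-3 alone (0.80 ± 0.04, against 0.02 ± 0.04 in E0771). The water channel Aqp1 was higher at 3.68 ± 0.18, with 1.25 to 2.03 CPM in AT-3 wild type and 19.6 to 24 CPM in AT-3 Y238A.

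The 468 genes with opposite signs included secreted and signalling proteins. Tgm2 (chr2:158116402-158146436), a transglutaminase that crosslinks matrix, had 264, 230 and 220 CPM in E0771 wild type and 39.1, 45.8 and 36 CPM in E0771 Y238A, against 5.59, 5.71 and 3.75 CPM in AT-3 wild type and 8.04, 7.45 and 7.87 CPM in AT-3 Y238A. The constructs overlapped in neither line (2.56 ± 0.12 in E0771, -0.63 ± 0.14 in AT-3, adjusted p of the interaction 1.23e-09).

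Csf1, the growth factor of macrophages, had 229, 236 and 211 CPM in E0771 wild type and 185, 200 and 168 CPM in E0771 Y238A, against 308, 381 and 368 CPM in AT-3 wild type and 875, 871 and 831 CPM in AT-3 Y238A (interaction 1.57 ± 0.11, adjusted p = 7.37e-10). The transcription factor Cebpd (3.08 ± 0.16), the phosphatase Dusp10 (2.35 ± 0.09) and the PDZ-LIM protein Pdlim2 (2.31 ± 0.13) were higher in E0771 wild type and lower in AT-3 wild type than in the matching Y238A cells. In the other direction, Ahcy, which hydrolyses S-adenosylhomocysteine, had 337, 357 and 355 CPM in E0771 wild type and 390, 436 and 400 CPM in E0771 Y238A, against 542, 557 and 556 CPM in AT-3 wild type and 166, 162 and 167 CPM in AT-3 Y238A (interaction -1.97 ± 0.06, adjusted p = 2e-15). Pcx, pyruvate carboxylase (-2.14 ± 0.09), the tetraspan protein Emp2 (-2.09 ± 0.09) and the sialyltransferase St3gal6 (-2.47 ± 0.11) were of the same kind.

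By smallest p among genes of at least 10 CPM in both lines, further genes with a negative interaction were Ank1, an ankyrin (-6.07 ± 0.16), Kank1, an adaptor at adhesions (-3.19 ± 0.09), Gcat, an enzyme of threonine breakdown (-2.44 ± 0.07), and Psmd8, a proteasome subunit (-2.17 ± 0.06). Ank1 had 71.1, 68.1 and 71.8 CPM in E0771 wild type and 63.3, 57.3 and 65.8 CPM in E0771 Y238A, against 52.1, 52.4 and 52.1 CPM in AT-3 wild type and 0.963, 0.52 and 0.567 CPM in AT-3 Y238A. AT-3 wild type stood near the level of both E0771 groups, and AT-3 Y238A far below it. On the positive side, Xdh, xanthine dehydrogenase (3.38 ± 0.07), Tspo, a mitochondrial membrane protein (2.10 ± 0.07), and Adcy7, an adenylate cyclase (2.79 ± 0.09), were lower in wild type in both lines, and further so in AT-3.

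Proliferation genes were called higher more often than lower, by small amounts. Of 58 S-phase genes, 26 were called higher and 7 lower (56.9%, against 45.7% of all genes, median 0.20). Of 65 G2/M genes, 36 were called higher and 7 lower (66.2%, median 0.24). With library totals the counts were 34 higher and 5 lower for S phase and 44 higher and 6 lower for G2/M. Mcm5, a subunit of the replicative helicase, had 345, 365 and 354 CPM in E0771 wild type and 414, 364 and 406 CPM in E0771 Y238A, against 142, 151 and 158 CPM in AT-3 wild type and 310, 288 and 291 CPM in AT-3 Y238A (interaction 0.83 ± 0.07, adjusted p = 1.24e-08). The kinetochore gene Cenpf was called higher (1.02 ± 0.08), and Cdca8, of the chromosomal passenger complex, lower (-0.74 ± 0.06).

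Of 81 cytosolic ribosomal protein genes, 11 were called higher and 12 lower (28.4%, below the 45.7% of all genes), with a median of -0.01, and with library totals 32 were higher and 5 lower. Among 26 cholesterol synthesis genes, 14 were called higher and 2 lower (61.5%, median 0.48). The unfolded protein and integrated stress response had 10 of 36 higher and 17 lower (75%, median -0.28). Herpud1, of ER-associated degradation, differed in AT-3 alone (2.46 ± 0.06, against 0.06 ± 0.06 in E0771), and the sensor Ern1 was at -1.34 ± 0.12.

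Glycolysis and hypoxia genes had 11 of 39 higher and 13 lower (61.5%, against 45.7% of all genes, median -0.14), with the glucose transporter Slc2a1 at -0.75 ± 0.06 and the prolyl hydroxylase Egln3 at -2.79 ± 0.15. Of 30 p53 targets, 10 were called higher and 5 lower (50%, near the 45.7% of all genes, median -0.03), with the BH3-only gene Pmaip1 at -3.21 ± 0.14. Among the 13 mitochondrially encoded genes tested, 6 were called lower and 7 were not called (46.2% called, near the 45.7% of all genes, median -0.51).

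The largest fitted interactions in absolute size belonged to genes at or near 0 counts in a group, for which a bound is given in place of the fold. The floor was 3 counts over the 3 libraries of a group, and since paired reads seem to be counted once per mate, the bound at 2 counts a fragment follows it. Nrk, a kinase gene, had 114 counts in E0771 wild type and 0 in E0771 Y238A, at least 36.9-fold higher (18.4-fold at 2 counts a fragment), while AT-3 wild type had 26.1 to 40.6 CPM and AT-3 Y238A 31.4 to 40.5 CPM. Map9, a microtubule-associated gene, had 118 counts in E0771 wild type and 0 in E0771 Y238A, at least 38.2-fold higher (19.1-fold). On the negative side, Mageb1, a gene of the germline, had 1138 counts in AT-3 wild type and 0 in AT-3 Y238A, at least 403-fold higher (202-fold), with 0.238 to 0.502 CPM in E0771 wild type and 0.183 to 0.275 CPM in E0771 Y238A. In the line that gave the bound, each of these genes was at most 4.21 CPM in every construct library.

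Markers of leukocytes summed to at most 75.5 CPM in a construct library, and those of endothelium and adipocytes to less. Of 7 leukocyte markers 3 were tested, with 2 called lower, and their summed level was 3.13 to 3.63 CPM in E0771 wild type and 11.5 to 17.7 CPM in E0771 Y238A, against 24.2 to 25 CPM in AT-3 wild type and 70.1 to 75.5 CPM in AT-3 Y238A. Nearly all of the sum was Cd68, a lysosomal protein, which was lower with wild type by -2.22 in E0771 and -1.78 in AT-3, as the interferon-stimulated genes were, and whose interaction was not called (-0.44 ± 0.20). That interaction was called by DESeq2, with the replicate block and without E0771 Y238A replicate 3 (lowest adjusted p among its alternatives 0.0173). The part of Cd68 in the result of the interferon-stimulated genes was not tested. Itgam and Csf1r were higher with wild type in AT-3 (4.33 ± 1.09 and 4.41 ± 0.50). They were the members called lower in the interaction. The call of Itgam was kept in only 8 of 19 alternatives (adjusted p up to 0.364), and was lost without the 4 libraries (adjusted p = 0.0544). Of 7 endothelial and adipocyte markers 6 were tested, with 2 called lower, and their sum was 1.14 to 1.74 CPM in E0771 wild type and 1.14 to 2.27 CPM in E0771 Y238A, against 3.59 to 3.89 CPM in AT-3 wild type and 2.68 to 3.37 CPM in AT-3 Y238A. The 2 calls were kept in 11 of 20 alternatives for Kdr and in 16 of 19 for Plin1. The call of Plin1 was lost without the 4 libraries left out for foreign transcripts. Its interaction was -4.87 with all libraries and -7.49 to -3.81 across its alternatives. Fibroblast markers were not low in E0771. Their sum was 784 to 812 CPM in E0771 wild type and 703 to 883 CPM in E0771 Y238A, mostly Col3a1, against 50.8 to 53.7 CPM in AT-3 wild type and 119 to 132 CPM in AT-3 Y238A, and of the 4 tested 1 was called higher and 3 lower. The 8 epithelial markers, 2 called higher and 2 lower, summed to 577 to 691 CPM in E0771 wild type and 379 to 403 CPM in E0771 Y238A, mostly Krt8, against 49.7 to 51.6 CPM in AT-3 wild type and 77.1 to 95 CPM in AT-3 Y238A.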

How the data were processed

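Poly(A) RNA of 18 libraries was sequenced from kits named in the labels. The authors deposited raw counts per gene, made with STAR and featureCounts on GRCm38, per the submitters' processing notes. Versions, annotation release and strandedness are not given in the sources used here, so overlapping and antisense genes, close copies, and the construct and endogenous Mrtfa may share reads. The file holds 32286 entries, of which 32158 had a symbol, 127 had none and 1, called MRTFA, was read as the construct. Totals were 81265466 to 115260128 counts. Between 61.9% and 64.6% of nonzero counts were even, so both mates of a pair appear to have been counted, and bounds from counts, which cover counting error only, are too narrow.

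The tests used edgeR 4.0.16 under R 4.3.3 (filterByExpr with a minimum count of 10 and a minimum total of 15, TMM scaling, robust quasi-likelihood F test). All 18 libraries were fitted with 6 group means, leaving 12 residual degrees of freedom, with Benjamini-Hochberg adjustment across 17841 genes. CPM are counts over TMM-scaled totals. The scripts were tested on simulated data. Alternatives were DESeq2 1.42.0, its size factors, library totals, other filters, the 12 construct libraries alone, a replicate block, a fold limit, and libraries left out.

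Foreign transcripts were gauged from genes over 20 CPM on average in the other line, by their median share of the level there. For AT-3 Y238A, genes expressed with AT-3 wild type and hardly with AT-3 empty vector were used as well. Members, gene lists and the 4 libraries to leave out were chosen with earlier results of these data known. Named genes were the construct, Mrtfa, Mrtfb and Srf, the extremes of the interaction, the smallest p among genes of at least 10 CPM in both lines, the largest opposite or unequal differences, and up to 4 list members by smallest p. Other genes named, among them further list members, were chosen after their values were seen. Some genes counted in the totals and lists are not reported here.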

Additional observations from a re-analysis of the deposited data

Results flagged for a closer look

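The wild-type minus Y238A difference itself differed between E0771 and AT-3 in 8147 genes by edgeR's quasi-likelihood test of the interaction, and in 468 of them it was called in both lines with opposite signs.

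Among the named genes reported here, those with opposite signs that were higher with wild type in E0771 and lower with wild type in AT-3 were Tgm2 (interaction 3.19), Cebpd (3.08), Dusp10 (2.35), Pdlim2 (2.31), Pxylp1 (2.27), Shisa4 (2.16), Irf2bpl (1.99), H2-K1 (1.59), Csf1 (1.57), Mical2 (1.53), Capg (1.27) and Axl (0.98). Those lower with wild type in E0771 and higher in AT-3 were mt-Nd2 (-0.57), Rpl22l1 (-1.07), Sipa1l2 (-1.96), Ahcy (-1.97), Emp2 (-2.09), Pcx (-2.14), St3gal6 (-2.47), Acsbg1 (-2.87), Col18a1 (-3.89) and Itgb4 (-5.97).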

How the results depend on the processing

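Between 81.9% and 98% of the 8147 interaction calls were shared with each alternative fit listed in the methods, the fold limit aside, all shared calls with the same sign. Requiring a log2 difference of at least 1 in absolute size left 3300 interaction calls, 1257 higher and 2043 lower, 1281 calls in E0771, 5590 in AT-3 and 85 with opposite signs. Without the 4 libraries left out for foreign transcripts 302 genes had opposite signs. Leaving out 1 construct library at a time gave 7646 to 8340 interaction calls, 3753 to 5151 higher and 3179 to 4088 lower, 3809 to 4807 in E0771, 11180 to 12378 in AT-3 and 356 to 507 with opposite signs. The higher counts came without AT-3 wild type replicate 2 (5116 higher, 3179 lower) or replicate 3 (5151 higher, 3189 lower), and the cause was not tested. Chi-square per degree of freedom between replicates was 40.1 and 51.8 for AT-3 wild type replicate 1, against 7.12 between replicates 2 and 3. For E0771 Y238A replicate 2 it was 57.3 and 68.4, against 12 between replicates 1 and 3. Replicates of the other construct groups had 6.84 to 19. Of 4185 alternative values for 210 named genes, 4099 kept direction and call, 69 lost the call, 16 gained it and 1 reversed: Cfl1, at -0.01 and not called, was 0.15 without AT-3 wild type replicate 2 (adjusted p = 0.0289) and between -0.046 and 0.13 with other libraries left out. Groups share replicate numbers. Same-numbered construct libraries deviated together weakly at most (correlations -0.126 to 0.169, 1 over 0.1), so the numbers were not taken to pair them. For AT-3 wild type with AT-3 Y238A each was small, at 0.00991 to 0.0247, but above the highest with another number. That held for E0771 wild type with AT-3 Y238A too (0.00713 to 0.028). Same-numbered libraries of E0771 wild type and E0771 empty vector deviated together more (0.173 to 0.394, each above the highest with another number), a hint from the data and not from the design. With the replicate block 8216 genes were called, 4165 higher and 4051 lower, with 4662 in E0771, 11779 in AT-3 and 484 with opposite signs. Genes near 0 counts in a group are limited by depth and by foreign transcripts.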
